A study of Mus musculus with 47 samples.

Results

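The genes described are 10 cornification genes other than keratins, Ivl, Lor, Flg, Cnfn, Sbsn, Krtdap, Spink5, Dsg1a, Cdsn and Grhl1, in medullary thymic epithelial cells (mTECs) of mice. They were chosen by name, as genes of the process by which the outer layers of the epidermis cornify. Earlier results of these data were known at that choice. The 10 genes stand among 53402 genes listed in both an adult and a neonatal table of read counts. All 10 passed the filter on low counts in both tables, among 19310 adult and 20196 neonatal genes tested. The libraries are bulk RNA-seq, so fewer cells that express a gene and less of its RNA in each cell cannot be told apart.

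Cells were sorted from C57BL/6 thymus as CD45-, EpCAM+ and Ly51-, and split by surface MHC class II into mTEChi (high) and mTEClo (low). Aire is a regulator through which mTECs transcribe genes of other tissues, and the mice labelled AireKO lack it. EED belongs to the core of PRC2, the Polycomb complex that marks silenced chromatin. In EEDcKO mice a floxed Eed was deleted by Foxn1-Cre, which acts throughout thymic epithelium, so that the deletion was not limited to mTECs. AireEEDdKO mice lack Aire and carry the Eed deletion. Adult libraries were mTEChi WT (n = 7) and mTEClo WT (n = 8) from mice aged 4 or 5 weeks, and mTEChi AireKO (n = 4) and mTEClo AireKO (n = 4) from male mice aged 5 or 6 weeks. Neonatal mTEChi libraries were Ctrl (n = 5) and EEDcKO (n = 3) from mice aged 1 to 6 days, and AireKO (n = 3) and AireEEDdKO (n = 3) from mice aged 4 or 6 days. Neonatal mTEClo libraries were Ctrl (n = 3, 1 to 3 days), EEDcKO (n = 4, 1 to 6 days) and AireEEDdKO (n = 3, 4 or 6 days). Some neonatal libraries pooled male and female mice. The mTEClo AireEEDdKO libraries and mTEClo EEDcKO replicates 3 and 4 carry later sample numbers than the other neonatal libraries. The labels do not say whether they were prepared apart. The labels do not give the alleles of the Ctrl mice, and they do not say that replicates came from separate animals. P-values therefore measure the spread between these libraries.

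Ivl (ENSMUSG00000049128, chromosome 3, 92570902 to 92573735, minus strand), Lor (ENSMUSG00000043165, chromosome 3, 92080271 to 92083142, minus strand) and Flg (ENSMUSG00000102439, chromosome 3, 93273523 to 93293686, plus strand) lie in the epidermal differentiation complex of GRCm38. Sbsn (ENSMUSG00000046056, chromosome 7, 30751471 to 30756134, plus strand) and Krtdap (ENSMUSG00000074199, chromosome 7, 30787896 to 30791097, plus strand) are close neighbours, and Cnfn (ENSMUSG00000063651, chromosome 7, 25367620 to 25369724, minus strand) lies on the same chromosome. The other genes are Spink5 (ENSMUSG00000055561, chromosome 18, 43963235 to 44022501, plus strand), Dsg1a (ENSMUSG00000069441, chromosome 18, 20310811 to 20343350, plus strand), Cdsn (ENSMUSG00000039518, chromosome 17, 35552128 to 35557180, plus strand) and Grhl1 (ENSMUSG00000020656, chromosome 12, 24572283 to 24617391, plus strand). All are annotated as protein coding, and values are counts over all exons. The body of Sbsn overlaps the annotated gene Tmem147os and that of Flg the pseudogene Rplp0-ps1. Dsg1a has the near-identical paralogs Dsg1b and Dsg1c, so how reads were shared among them is uncertain.

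In the epidermis, keratinocytes that leave the basal layer replace their plasma membrane by a protein envelope cross-linked by transglutaminases, and corneodesmosomes hold the dead cells together until proteases release them. In the thymus, some mTECs take on the programme of peripheral cell types, keratinocytes among them, and so present the proteins of those tissues to developing T cells. Involucrin (Ivl) and loricrin (Lor) are envelope precursors, profilaggrin (Flg) gives rise to the filaggrin that packs keratin filaments, and cornifelin (Cnfn) is a further envelope component. Suprabasin (Sbsn) and keratinocyte differentiation-associated protein (Krtdap) are secreted by suprabasal keratinocytes. Spink5 encodes LEKTI, an inhibitor of the kallikrein proteases of desquamation. Desmoglein 1 alpha (Dsg1a) and corneodesmosin (Cdsn) serve adhesion between cornifying cells. Grhl1 is a transcription factor of the grainyhead-like family that binds the promoters of desmosomal genes.

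RefSeq promoters on GRCm38.p6 were found for 8 of the 10 genes, and 3 motifs were searched on both strands of the 250 bases before each start. The AP-1 motif TGANTCA, in which N is any base, was present in 5 of the 8 genes (Lor, Ivl, Flg, Sbsn and Krtdap). Per promoter this was 5 of their 10, against 6.75% of the 32851 promoters of all genes. The TATA box TATAAA was present in 4 of the 8 (Lor, Ivl, Flg and Krtdap), or 4 of the 10 promoters, against 12.4% of all promoters. These same 4 genes held both motifs, in 4 of the 10 promoters, against 1.21% of all promoters. The grainyhead-like motif AACCGGTT was in none of the 8 and in 0.116% of all promoters. A match is a description of these letters and not a measured binding site. The 150 bases before the start are printed 5′ to 3′ for the 4 genes that held both motifs and for Cdsn, which held neither. Ivl, Lor and Cdsn were called lower in adult mTEChi of AireKO mice, and Flg and Krtdap were not, so that the pair of motifs was present on both sides of that division. Capitals mark TGANTCA and TATAAA. The RefSeq starts of Flg and Krtdap lie slightly inside the gene bounds given above.
Lor, chr3:92083143-92083292, minus strand: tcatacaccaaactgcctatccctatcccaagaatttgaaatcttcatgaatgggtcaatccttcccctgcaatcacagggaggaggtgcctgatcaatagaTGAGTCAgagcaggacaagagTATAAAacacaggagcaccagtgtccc
Ivl, chr3:92573736-92573885, minus strand: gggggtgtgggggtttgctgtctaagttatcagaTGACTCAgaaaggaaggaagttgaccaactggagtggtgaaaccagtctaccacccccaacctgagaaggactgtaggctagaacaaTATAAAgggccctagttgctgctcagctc
Flg, chr3:93273396-93273545, plus strand: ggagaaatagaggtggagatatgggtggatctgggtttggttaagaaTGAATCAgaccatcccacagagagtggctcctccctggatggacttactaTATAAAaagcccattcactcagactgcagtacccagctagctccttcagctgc
Krtdap, chr7:30787755-30787904, plus strand: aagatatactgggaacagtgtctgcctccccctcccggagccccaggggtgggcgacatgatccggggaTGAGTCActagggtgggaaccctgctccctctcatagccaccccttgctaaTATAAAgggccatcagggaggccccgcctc
Cdsn, chr17:35551978-35552127, plus strand: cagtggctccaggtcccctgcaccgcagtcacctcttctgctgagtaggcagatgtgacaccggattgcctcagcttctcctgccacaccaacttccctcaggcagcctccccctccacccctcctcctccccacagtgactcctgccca

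Library totals ranged from 1602125 to 3938588 counts in adults and from 1578579 to 4817418 in neonates. Values are CPM, a gene's share of its library's counts scaled to one common total, after TMM scaling, a correction of library size for composition. A gene was called where edgeR's quasi-likelihood F-test gave an adjusted p under 0.05 (Benjamini-Hochberg over all genes tested) and the groups differed at least 2-fold. Aire had 818 ± 56.0 CPM in adult mTEChi WT and 29.3 ± 11.6 CPM (SD) in AireKO, and in neonatal mTEChi 619 ± 154 CPM in Ctrl and 70.6 ± 38.7 CPM in AireKO. Eed, of which the labels do not give the deleted exons, had log2 fold changes (EEDcKO minus Ctrl) of −1.001 (SE 0.22, adjusted p 0.0014 by edgeR) in neonatal mTEChi and −0.67 (SE 0.22, adjusted p 0.023 by edgeR) in mTEClo. Of 8 mTEC markers (Epcam, H2-Aa, Cd74, Cd80, Aire, Ccl21a, Krt5 and Krt14), Ccl21a had 0 counts in every library and the others were present in every group. Of the markers of other cell types, the endothelial Cdh5 was at 0 in all adult mTEClo AireKO and neonatal mTEClo AireEEDdKO libraries, and the mesenchymal Pdgfra in all neonatal mTEChi AireKO libraries. Mitochondrial counts were 0 in all 4 adult AireKO libraries of mTEChi and in replicates 3 and 4 of AireKO mTEClo, whereas the other 17 adult libraries had 6178 to 10339. In adult mTEChi, genotype and kind of library cannot be told apart. Within adult mTEClo AireKO the kind of library cannot be told apart from age either, since replicates 1 and 2 were aged 5 weeks and replicates 3 and 4 6 weeks.

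Levels are compared between genes per kilobase of exon. In adult mTEChi WT, Dsg1a stood first with 48.7 ± 8.48 CPM per kilobase (SD, n = 7), followed by Krtdap with 38.3 ± 7.74, Spink5 with 22.5 ± 6.52, Grhl1 with 16.2 ± 1.46 and Lor with 15.8 ± 7.56. Cdsn (7.85 ± 2.66), Cnfn (6.66 ± 3.29), Ivl (5.87 ± 0.710), Sbsn (4.06 ± 0.830) and Flg (3.35 ± 0.591) came lower. The ranges of neighbours in this order overlapped throughout. In adult mTEClo WT (n = 8), Krtdap led with 77.4 ± 19.3 CPM per kilobase, ahead of Spink5 with 41.0 ± 14.8 and Dsg1a with 34.4 ± 3.47. Ranges of neighbours did not overlap at 2 steps of that order, between Dsg1a and Lor (15.7 ± 5.89) and between Ivl (5.63 ± 1.24) and Flg (2.90 ± 0.599). In neonatal mTEChi Ctrl (n = 5) the order opened with Dsg1a at 53.7 ± 12.1, Krtdap at 41.7 ± 7.97 and Lor at 26.3 ± 9.90 CPM per kilobase. In neonatal mTEClo Ctrl (n = 3) it opened with Krtdap at 35.8 ± 3.58, Dsg1a at 31.5 ± 7.04 and Grhl1 at 11.7 ± 1.27. Flg had the lowest level per kilobase of the 10 genes in all 4 of these groups, at 1.66 ± 0.296 in neonatal mTEChi Ctrl and 0.682 ± 0.265 in neonatal mTEClo Ctrl. Its counts were divided by 18.8 kilobases of exon. How much of that length kept its reads after multi-mapped reads were removed was not tested, so its rank may be too low. Neighbours did not overlap between Grhl1 and Ivl or between Sbsn and Flg in neonatal mTEChi Ctrl. In neonatal mTEClo Ctrl they did not overlap between Dsg1a and Grhl1, Lor and Cnfn, Cnfn and Sbsn, or Cdsn and Flg.

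In adult mTEChi, 3 of the 10 genes were called lower in AireKO than in WT, the envelope precursors Ivl and Lor and the adhesion protein Cdsn. None was called higher. Genotype and kind of library cannot be told apart in this comparison. Across all genes 5.63% of the 19310 genes tested were called higher and 17.8% lower. The median log2 fold change (AireKO minus WT) was −0.37 over the 10 genes and −0.015 over all genes tested. Ivl ran from 9.29 to 12.9 CPM with a median of 11.2 in the 7 WT libraries and was 3.07, 3.27, 3.77 and 0.835 CPM in the 4 AireKO libraries. Every AireKO library lay below every WT library, at a log2 fold change of −2.01 (SE 0.40, adjusted p 0.00011 by edgeR). Lor ran from 13.6 to 48.6 CPM with a median of 26.9 in WT and was 9.21, 0, 7.87 and 3.34 CPM in AireKO, again without overlap, at a log2 fold change of −2.42 (SE 0.45, adjusted p 4.8e-05 by edgeR). Cdsn ran from 9.60 to 29.1 CPM with a median of 22.2 in WT and was 2.19, 0, 2.05 and 4.18 CPM in AireKO. It had the largest difference of the 10 genes, −3.27 (SE 0.58, adjusted p 2.7e-05 by edgeR), and the groups did not overlap. AireKO replicate 2 had 0 counts of both Lor and Cdsn, which allows up to 1.23 CPM in that library.

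**Figure D1:**
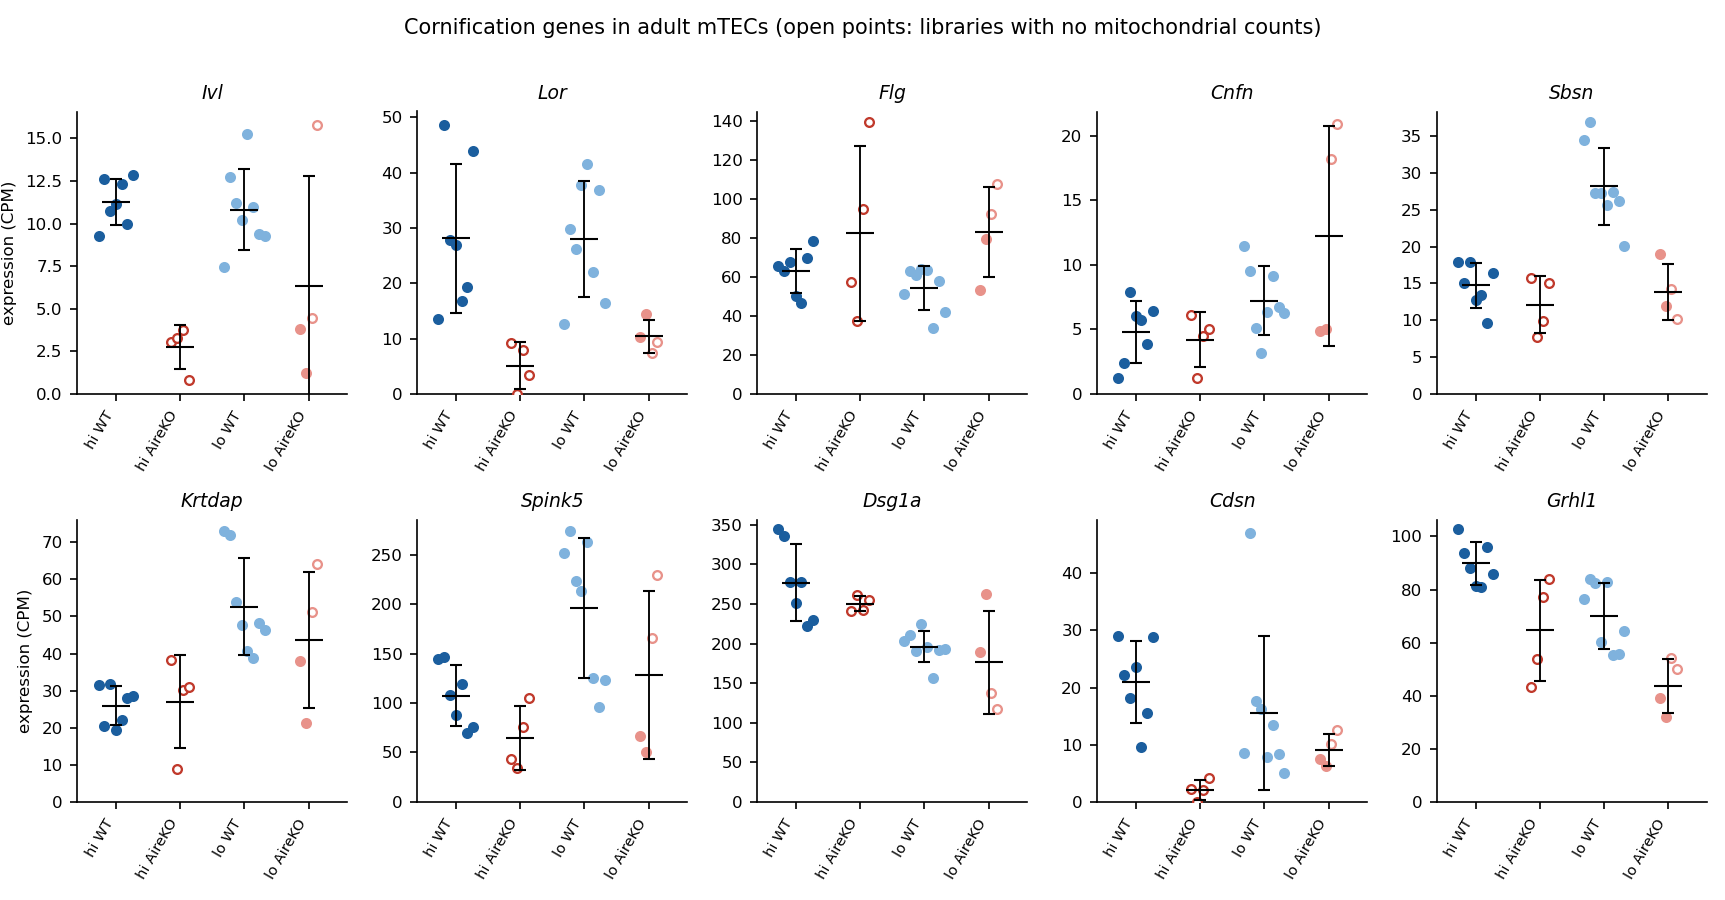
Expression (CPM, y axis, starting at 0) of each of the 10 genes in the adult libraries of mTEChi (hi) and mTEClo (lo), one point per library, with black bars for the mean ± SD and open points for libraries with 0 mitochondrial counts. Ivl, Lor and Cdsn lay lower in every mTEChi AireKO library than in any mTEChi WT library, whereas Flg, Krtdap and Dsg1a overlapped between these groups.

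The other envelope genes, Flg and Cnfn, were not called in adult mTEChi. Flg was 57.5, 37.6, 94.8 and 139.5 CPM in AireKO and ran from 46.5 to 78.5 CPM with a median of 65.7 in WT, at a log2 fold change of 0.39 (SE 0.23, adjusted p 0.16 by edgeR) with a 95% interval from −0.064 to 0.85. Cnfn had few counts, with 4.79 ± 2.37 CPM in WT (n = 7) and 4.21 ± 2.11 CPM in AireKO (n = 4), and a 95% interval from −1.18 to 0.62. Of the secreted proteins, Krtdap had a log2 fold change of 0.062 (SE 0.27, adjusted p 0.86 by edgeR) and Sbsn one of −0.27 (SE 0.22, adjusted p 0.30 by edgeR). The protease inhibitor Spink5 was 43.9, 34.0, 76.0 and 105 CPM in AireKO and ran from 70.0 to 147 CPM with a median of 109 in WT, with −0.71 (SE 0.36, adjusted p 0.094 by edgeR). Dsg1a had 277 ± 48.2 CPM in WT and 250.4 ± 9.48 CPM in AireKO, −0.14 (SE 0.15, adjusted p 0.43 by edgeR). Grhl1 passed the adjusted p but stayed under 2-fold, at −0.47 (SE 0.16, adjusted p 0.013 by edgeR). Leaving out any 1 library kept the calls of Ivl, Lor and Cdsn, and Spink5 was called lower in addition without mTEChi AireKO replicate 4 (−1.03). With the kind of library as a term, which rests on the 4 mTEClo AireKO libraries, Lor lost its call (−1.90, edgeR adjusted p 0.072), and Spink5 (−2.46), Cnfn (−2.26) and Grhl1 (−1.01) gained one. Keratinocyte keratins (Krt1, Krt2, Krt10, Krt77, Krt78 and Krt80) summed to 68.7 to 180.4 CPM in AireKO, against 314 to 472 CPM in WT. The summed level of 4 myeloid markers (Lyz2, Cd68, Itgam and Csf1r) moved with the genotype, from 236 to 296 CPM in WT to 354 to 407 CPM in AireKO, and that of 6 thymocyte markers (Ptprc, Cd3e, Cd4, Cd8a, Lck and Rag1) from 79.3 to 111 CPM to 43.1 to 56.9 CPM. Single myeloid markers did not move as one, with 1 called higher and 1 lower (median log2 fold change −0.019). Of 5 mesenchymal markers (Col1a1, Col1a2, Dcn, Pdgfra and Pdgfrb) 1 was called higher and 3 lower (median −2.22), while their sums overlapped. Their part in the results was not tested.

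Elsewhere in the cornification pathway, proteases, envelope precursors and keratins held most of the calls in adult mTEChi of AireKO mice. Of 15 tested desquamation proteases and inhibitors, 10 fell and none rose (median log2 fold change −2.26), among them the kallikreins Klk5 (−4.28), Klk10 (−3.73) and Klk7 (−2.26) and the caspase Casp14 (−3.27). Of 13 tested envelope precursors of the epidermal differentiation complex, 6 fell and none rose (median −1.22), with Tchhl1 (−5.19), Sprr3 (−3.93) and Tchh (−1.74) among them. Keratinocyte keratins fell at 5 of 6, including Krt1 (−2.06), Krt10 (−1.59) and Krt2 (−4.77). Cross-linking enzymes and scaffold proteins, such as the transglutaminase Tgm1 (0.22) and desmoplakin (Dsp, −0.56), had no call in either direction among 11 tested, with a median of 0.10. Barrier lipid enzymes had 2 of 15 lower, Alox12b (−2.73) and Elovl4 (−1.02). Regulators of epidermal differentiation had 2 of 20 lower, Hopx (−1.51) and Klf5 (−1.06), whereas Grhl2 (−0.85) and Grhl3 (0.064) were not called. Of 8 desmosomal cadherins 1 fell, Dsc1 (−1.16). Among 10 other suprabasal and secreted proteins, 3 fell, Cxcl14 (−2.31), Il1f5 (−1.67) and Lypd5 (−1.16), and 2 rose, the calmodulin-like Calml3 (1.54) and Calm4 (1.02). These lists are described by their counts beside the background given above, and no test was made of any list.

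In adult mTEClo, Lor and the secreted Sbsn were called lower in AireKO than in WT, and none of the 10 genes was called higher. Here 4.42% of the 19310 genes tested were called higher and 3.88% lower, and the median log2 fold change was −0.56 over the 10 genes. Lor ran from 12.6 to 41.5 CPM with a median of 28.1 in the 8 WT libraries and was 10.3, 14.4, 7.45 and 9.47 CPM in the 4 AireKO libraries, at a log2 fold change of −1.51 (SE 0.39, adjusted p 0.0054 by edgeR). AireKO replicate 2 lay above WT replicate 1, so the groups overlapped. Sbsn ran from 20.1 to 36.9 CPM with a median of 27.3 in WT and was 18.9, 11.9, 14.3 and 10.2 CPM in AireKO, with no overlap and −1.03 (SE 0.20, adjusted p 0.00034 by edgeR). That call lay close to the 2-fold limit and was lost without mTEClo WT replicate 1 (−0.99), mTEClo WT replicate 2 (−0.98), mTEClo AireKO replicate 2 (−1.0) and mTEClo AireKO replicate 4 (−0.89). With age in weeks as a term, Lor (−1.21, edgeR adjusted p 0.11) and Sbsn (−0.76, under 2-fold) both lost their calls. WT mice were aged 4 or 5 weeks and AireKO mice 5 or 6 weeks. Ivl, which fell in mTEChi, was 3.79, 1.25, 4.47 and 15.8 CPM in mTEClo AireKO and ran from 7.47 to 15.3 CPM with a median of 10.6 in WT, and was not called (−0.57, SE 0.32, adjusted p 0.20 by edgeR). Of these 4 libraries 3 lay below every WT library, and replicate 4 lay above every one. Without replicate 4, Ivl was called lower at −1.66 (adjusted p 0.00025 by edgeR). Grhl1 (−0.64, SE 0.16, adjusted p 0.0042 by edgeR) passed the adjusted p lower, and Flg (0.63, SE 0.23, adjusted p 0.040 by edgeR) and Cnfn (0.96, SE 0.35, adjusted p 0.041 by edgeR) passed it higher, all under 2-fold. Cnfn was called higher on leaving out any 1 of mTEClo WT replicates 1, 2 and 6 and AireKO replicates 1 and 2, at 1.02 to 1.19. In these groups summed myeloid markers were 106 to 142 CPM in AireKO and 38.0 to 67.4 CPM in WT, cortical epithelial markers 499.6 to 587 and 369 to 460.4 CPM and endothelial markers 6.26 to 8.26 and 2.55 to 5.71 CPM. Of 4 myeloid markers 2 were called higher and 1 lower, of 5 cortical markers 2 higher, and of the endothelial markers none. The cortical markers were Psmb11, Prss16, Ctsl, Ly75 and Enpep and the endothelial ones Pecam1, Cdh5 and Kdr, and the part of these cells in the results was not tested.

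The 4 mTEClo AireKO libraries differed by kind for 9 of the 10 genes, in that replicates 1 and 2 did not overlap replicates 3 and 4, as was the case for 57.1% of the 19310 genes tested. Spink5 was 66.6 and 50.1 CPM in the libraries with mitochondrial counts, and 166 and 229.7 CPM in those without. Cnfn was 4.87 and 5.01 CPM in the former and 18.2 and 20.9 CPM in the latter. With replicates 1 and 2 alone, Ivl (−2.04, edgeR adjusted p 0.00045) and Spink5 (−1.71, edgeR adjusted p 0.0017) were called lower than WT. Lor (−1.20, edgeR adjusted p 0.078) and Sbsn (−0.81, under 2-fold) then lost their calls. The WT libraries of mTEClo also differed with age in Spink5, which was 252, 273, 224, 213, 263, 125, 96.0 and 124 CPM in replicates 1 to 8. Replicates 1 to 5 were aged 4 weeks and lay above replicates 6 to 8, which were aged 5 weeks. Spink5 was named after its values were seen. In each of the other genes these ages overlapped, and the share of all genes without overlap was not counted.

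The other cornification genes of adult mTEClo gave fewer calls. Kallikreins again fell, with 5 of the 15 desquamation genes lower and none higher, Klk10 (−2.25), Klk6 (−2.17), Klk11 (−2.16), Klk14 (−1.46) and Klk13 (−1.097). Of the 6 keratins 4 fell, Krt1 (−2.19), Krt10 (−1.86), Krt78 (−1.18) and Krt80 (−1.03). No envelope precursor fell among 13, and 2 rose, Crnn (1.68) and Sprr1b (2.87). Dermokine (Dmkn, −1.04), a secreted neighbour of Sbsn and Krtdap, fell as well.

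Between the fractions of adult WT mice, none of the 10 genes was called by edgeR, whereas 23.7% of the 19310 genes tested were called higher and 12.4% lower in mTEChi than in mTEClo. Of the 10, 5 had an unadjusted p under 0.05, against 72.5% of all genes, and the same number passed the adjusted p with a difference under 2-fold, a threshold that 70.5% of all genes passed. DESeq2 called 0 of them. Both secreted proteins had non-overlapping fractions, with Sbsn from 9.68 to 18.0 CPM with a median of 15.0 in mTEChi and from 20.1 to 36.9 CPM with a median of 27.3 in mTEClo, and Krtdap from 19.3 to 31.8 CPM with a median of 28.1 and from 38.7 to 72.9 CPM with a median of 48.0. Their log2 fold changes (mTEChi minus mTEClo) were −0.93 (SE 0.16, adjusted p 8.9e-06 by edgeR) and −0.99 (SE 0.21, adjusted p 0.00015 by edgeR). Krtdap lay just under the 2-fold limit and passed it on leaving out any 1 of 9 libraries, at −1.07 to −1.01 (without mTEClo WT replicates 4 to 8 or mTEChi WT replicates 1, 3, 6 or 7). Spink5 was lower in mTEChi (−0.88, SE 0.28, adjusted p 0.0060 by edgeR) and called so without mTEClo WT replicate 7 (−1.02), and Dsg1a (0.50, SE 0.12, adjusted p 0.00063 by edgeR) and Grhl1 (0.36, SE 0.13, adjusted p 0.013 by edgeR) were higher. For Ivl the log2 fold change was 0.051 (95% interval −0.44 to 0.54) and for Lor −0.026 (95% interval −0.57 to 0.52). Other envelope precursors did differ between these fractions, with 9 of 13 higher in mTEChi and none lower, among them Sprr3 (6.60) and Lce1m (5.63). The paralogs of Dsg1a were called higher in mTEChi too, Dsg1b at 1.53 and Dsg1c at 1.45. Between these fractions summed myeloid markers were 236 to 296 CPM in mTEChi and 38.0 to 67.4 CPM in mTEClo, thymocyte markers 79.3 to 111 and 27.9 to 40.7 CPM, mesenchymal markers 185 to 352 and 54.1 to 87.5 CPM and endothelial markers 22.96 to 37.2 and 2.55 to 5.71 CPM. The mesenchymal markers were Col1a1, Col1a2, Dcn, Pdgfra and Pdgfrb, and the part of these cells was not tested.

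In adult AireKO mice, 4 of the 10 genes were lower in mTEChi than in mTEClo, Ivl, Cnfn, Spink5 and Cdsn, and none was higher. In that comparison 18.5% of the 19310 genes tested were called higher and 16.7% lower. Cdsn was 2.19, 0, 2.05 and 4.18 CPM in mTEChi and 7.58, 6.26, 10.1 and 12.6 CPM in mTEClo, without overlap, at a log2 fold change of −2.18 (SE 0.67, adjusted p 0.0067 by edgeR). Cnfn was 6.14, 1.23, 4.45 and 5.01 CPM in mTEChi and 4.87, 5.01, 18.2 and 20.9 CPM in mTEClo, with −1.67 (SE 0.45, adjusted p 0.0023 by edgeR). The mTEClo values of 4.87 and 5.01 CPM came from the libraries with mitochondrial counts and lay within the mTEChi range. All mTEChi libraries lacked such counts, so kind of library differed in part between these fractions. Ivl had −1.39 (SE 0.45, adjusted p 0.0098 by edgeR), but replicate 4 of mTEClo held most of its level, and without it the value was −0.32 and the call was lost. Spink5 had −1.03 (SE 0.39, adjusted p 0.025 by edgeR), a call lost without mTEClo AireKO replicate 3 (−0.92), mTEClo AireKO replicate 4 (−0.61), mTEChi AireKO replicate 1 (−0.89) and mTEChi AireKO replicate 2 (−0.82). Same-numbered libraries deviated together here, and with the replicate number as a block on these groups alone 2 of the 4 calls remained, Cnfn (−1.54) and Cdsn (−2.17). Spink5 stayed under 2-fold (−0.94), and Ivl was not tested in that fit for lack of counts. Sums of markers of other cells differed between the fractions, where summed myeloid markers were 354 to 407 CPM in mTEChi and 106 to 142 CPM in mTEClo, thymocyte markers 43.1 to 56.9 and 15.7 to 30.3 CPM, mesenchymal markers 187 to 201 and 60.1 to 134 CPM, endothelial markers 19.2 to 25.4 and 6.26 to 8.26 CPM and cortical epithelial markers 377 to 444 and 499.6 to 587 CPM. Single mesenchymal markers went both ways, with 1 of 5 called higher and 2 lower in mTEChi (median log2 fold change −0.23). Of 5 thymocyte markers tested 2 were called higher and none lower (median −0.15). Their part in the results was not tested.

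For Ivl and Cdsn the difference between AireKO and WT was itself called different between the adult fractions. All mTEChi AireKO libraries lacked mitochondrial counts, but in mTEClo AireKO only replicates 3 and 4 did. Kind of library therefore entered this comparison unequally, and both genes differed by kind within mTEClo AireKO. The difference of the AireKO effects, mTEChi minus mTEClo, was −2.69 (SE 0.75, adjusted p 0.0088 by edgeR) for Cdsn and −1.44 (SE 0.52, adjusted p 0.041 by edgeR) for Ivl on the log2 scale. In that test 2.7% of the 19310 genes tested were called higher and 11% lower. Cdsn kept its call whichever of the 23 libraries was left out, whereas Ivl lost it on leaving out any 1 of 11. Without mTEClo AireKO replicate 4 the value of Ivl was −0.36, and without any 1 of mTEClo WT replicates 1, 4, 7 and 8, mTEChi WT replicates 2, 5 and 7 and mTEChi AireKO replicates 1, 2 and 4 it ran from −1.52 to −1.15. For Lor, which fell in both fractions, the difference was −0.92 (SE 0.61, adjusted p 0.30 by edgeR), and for Sbsn it was 0.76 (SE 0.29, adjusted p 0.056 by edgeR). Cnfn was called without mTEClo AireKO replicate 1, at −1.48.

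In neonatal Ctrl mice the 10 genes were all at a higher mean level in mTEChi than in mTEClo, and 3 were called, Flg, Spink5 and Cdsn. Among all genes 13.8% of the 20196 genes tested were called higher and 6.92% lower, and the median log2 fold change (mTEChi minus mTEClo) was 0.92 over the 10 genes and −0.005 over all genes. Flg was 36.6, 22.5, 35.5, 29.8 and 31.6 CPM in mTEChi and 9.80, 18.6 and 10.1 CPM in mTEClo, at a log2 fold change of 1.27 (SE 0.48, adjusted p 0.040 by edgeR). Spink5 was 69.2, 86.1, 93.2, 83.4 and 112 CPM in mTEChi and 41.5, 49.8 and 34.9 CPM in mTEClo, with 1.07 (SE 0.38, adjusted p 0.029 by edgeR). Cdsn was 12.4, 9.24, 9.63, 18.2 and 18.0 CPM in mTEChi and 7.77, 4.56 and 3.38 CPM in mTEClo, with 1.34 (SE 0.42, adjusted p 0.015 by edgeR). The fractions did not overlap for 7 of the 10 genes, these 3, Ivl, Lor, Dsg1a and Grhl1, and for 45.3% of all genes tested. Ivl (1.50, SE 0.63, adjusted p 0.062 by edgeR) and Lor (1.65, SE 0.69, adjusted p 0.064 by edgeR) differed by more than 2-fold and missed the adjusted p.

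The calls between neonatal Ctrl fractions depended on single libraries. Flg lost its call without mTEClo Ctrl replicate 1 (1.096), mTEClo Ctrl replicate 3 (1.20), mTEChi Ctrl replicate 1 (1.21), mTEChi Ctrl replicate 3 (1.23), mTEChi Ctrl replicate 4 (1.29) and mTEChi Ctrl replicate 5 (1.26). Spink5 lost it without mTEClo Ctrl replicate 1 (1.07), mTEClo Ctrl replicate 3 (1.02) and mTEChi Ctrl replicate 5 (0.98), and Cdsn without mTEClo Ctrl replicate 2 (1.24) and mTEClo Ctrl replicate 3 (1.20). All 3 mTEClo Ctrl libraries were aged 1 to 3 days, whereas mTEChi Ctrl replicates 1 and 2 were aged 6 days. Among libraries of 1 to 3 days alone, 5 genes were called, with Ivl (1.55) and Lor (1.79) in addition, where 14.9% of the 19662 genes tested were called higher. With age class as a term Flg lost its call, at 1.13 (adjusted p 0.075 by edgeR). Cortical epithelial markers summed to 281 to 798 CPM in mTEChi and 1694 to 2581 CPM in mTEClo. Likewise summed myeloid markers were 245 to 265 CPM in mTEChi and 104 to 168 CPM in mTEClo, thymocyte markers 91.0 to 109 and 25.3 to 37.5 CPM, mesenchymal markers 233 to 307 and 117 to 124 CPM and endothelial markers 21.9 to 42.6 and 17.9 to 20.3 CPM. The part of these cells in the results was not tested.

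**Figure D2:**
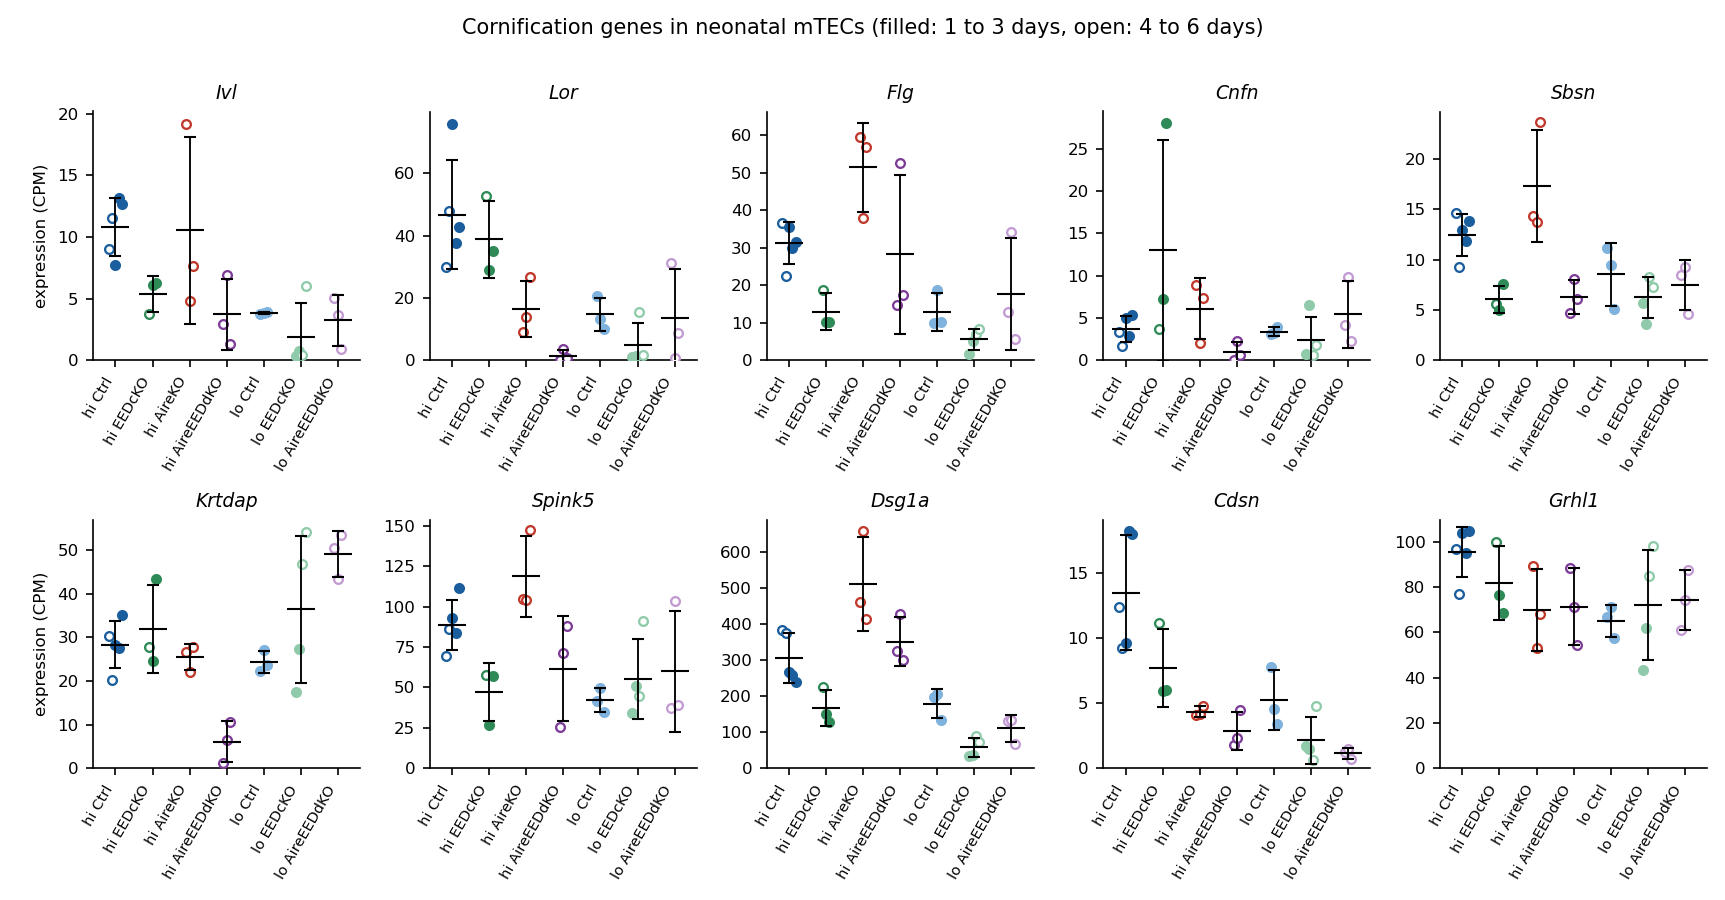
Expression (CPM, y axis, starting at 0) of each of the 10 genes in the neonatal libraries of mTEChi (hi) and mTEClo (lo), one point per library, with black bars for the mean ± SD, cut at 0, filled points for ages 1 to 3 days and open points for 4 to 6 days. Lor and Krtdap lay lower in all 3 mTEChi AireEEDdKO libraries than in any mTEChi AireKO library, and Dsg1a lay lower in all 4 mTEClo EEDcKO libraries than in any mTEClo Ctrl library.

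In neonatal mTEChi, 1 of the 10 genes was called lower in AireKO than in Ctrl, Cdsn, where 3.56% of the 20196 genes tested were called higher and 12.8% lower. Cdsn was 4.11, 4.13 and 4.803 CPM in AireKO and 12.4, 9.24, 9.63, 18.2 and 18.0 CPM in Ctrl, without overlap, a log2 fold change (AireKO minus Ctrl) of −1.62 (SE 0.45, adjusted p 0.0093 by edgeR). Lor was 8.91, 13.8 and 26.6 CPM in AireKO and 29.8, 47.9, 75.9, 37.5 and 42.6 CPM in Ctrl. The groups did not overlap, but the test missed the threshold at −1.42 (SE 0.69, adjusted p 0.13 by edgeR). Ivl was 19.2, 4.82 and 7.63 CPM in AireKO and 9.0, 11.6, 7.70, 13.2 and 12.6 CPM in Ctrl, with 1 AireKO library above and 2 below every Ctrl library, and a 95% interval from −1.19 to 1.02. Dsg1a was 462, 659 and 413 CPM in AireKO against 384, 377, 268, 259.5 and 239.8 CPM in Ctrl, higher without overlap but under 2-fold (0.75, SE 0.27, adjusted p 0.044 by edgeR). Flg was 59.6, 37.9 and 56.8 CPM in AireKO, above every Ctrl library, and was not called (0.72, SE 0.42, adjusted p 0.21 by edgeR). All 3 AireKO libraries were aged 4 to 6 days and 3 of the 5 Ctrl libraries 1 to 3 days. Against the 2 Ctrl libraries of 6 days alone, the value of Cdsn was −1.38 and its call was lost. The thymocyte markers moved with the genotype, from 91.0 to 109 CPM in Ctrl to 54.1 to 88.1 CPM in AireKO, and the endothelial markers summed to 21.9 to 42.6 CPM in Ctrl and 15.8 to 21.9 CPM in AireKO. Their part was not tested.

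Proteases and keratins of the cornification pathway fell in neonatal AireKO mTEChi as well. Of 16 desquamation genes 8 fell and none rose (median −1.24), including Klk5 (−4.18), Casp14 (−3.66) and Klk7 (−1.63). Of 6 keratins 5 fell, including Krt1 (−2.81) and Krt10 (−1.55). Of 12 tested envelope precursors 4 fell, Lce1m (−5.14), S100a7a (−3.53), Tchhl1 (−3.34) and Tchh (−1.98), and 1 rose, Flg2 (1.78), a relative of Flg. Cross-linking enzymes and scaffold proteins had no call among 11.

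**Figure D3:**
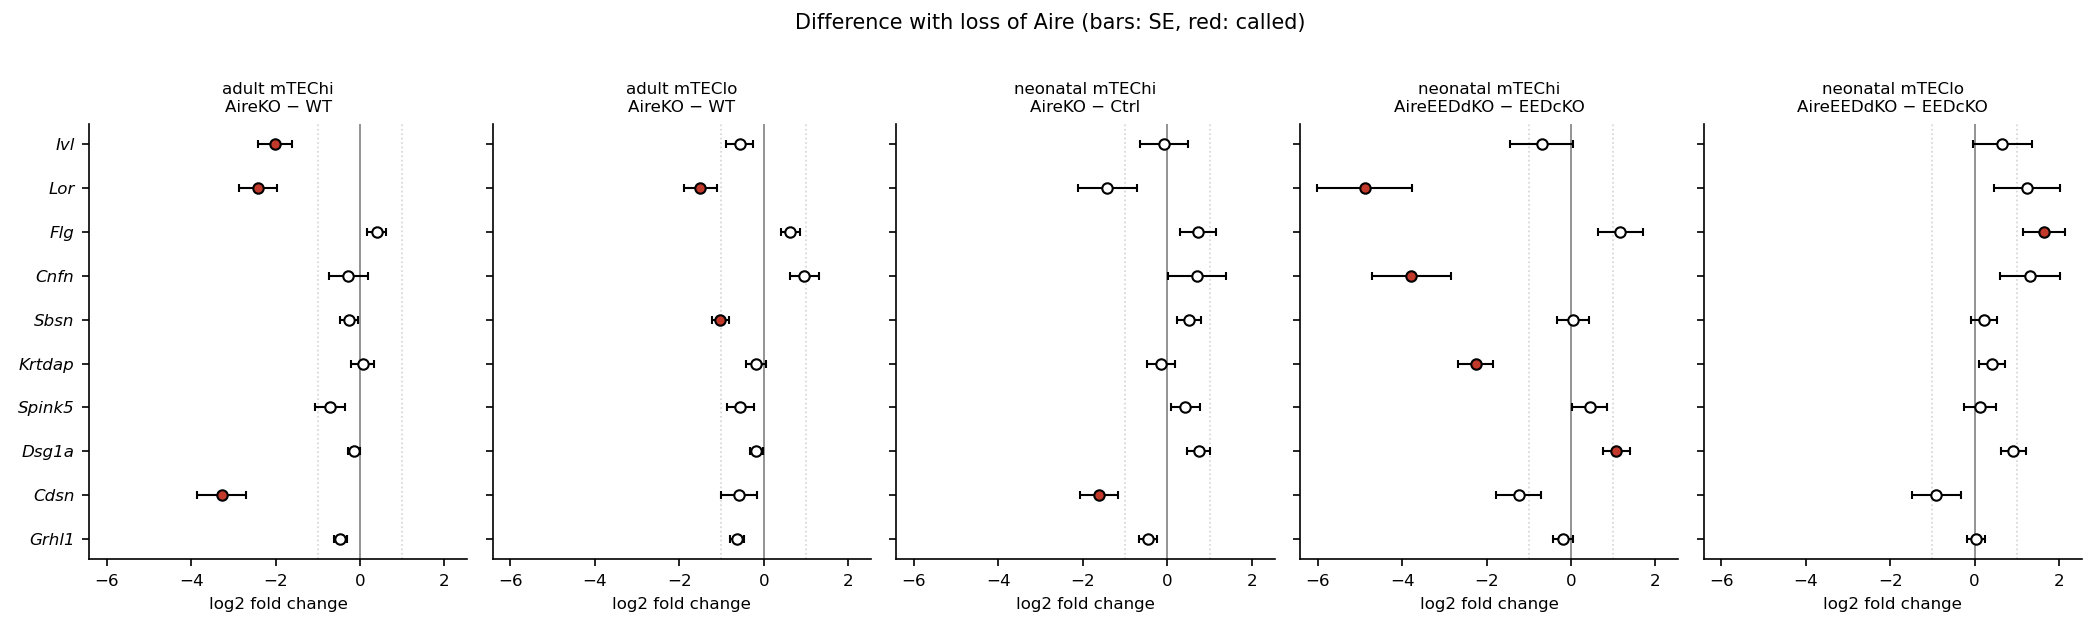
Log2 fold change (x axis) with loss of Aire for each of the 10 genes (y axis) in 5 comparisons, with bars for the standard error, red points for genes called and dotted lines at a 2-fold difference. Ivl, Lor and Cdsn stood out on the lower side in adult mTEChi, Cdsn alone was called in neonatal AireKO against Ctrl, and Lor, Krtdap and Cnfn were called lower and Dsg1a higher in AireEEDdKO against EEDcKO.

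In neonatal mTEChi with Aire present, Flg and Sbsn were called lower and Cnfn higher in EEDcKO than in Ctrl. Across all genes 8.48% of the 20196 genes tested were called higher and 5.4% lower, and the median log2 fold change (EEDcKO minus Ctrl) over the 10 genes was −0.89. Flg was 18.6, 10.1 and 10.1 CPM in EEDcKO against 36.6, 22.5, 35.5, 29.8 and 31.6 CPM in Ctrl, without overlap, at −1.35 (SE 0.48, adjusted p 0.033 by edgeR). Sbsn was 5.57, 5.03 and 7.55 CPM in EEDcKO against 14.6, 9.24, 12.9, 11.9 and 13.8 CPM in Ctrl, also without overlap, at −1.05 (SE 0.31, adjusted p 0.013 by edgeR). Cnfn was 3.72, 7.22 and 28.0 CPM in EEDcKO against 3.38, 1.73, 4.95, 2.90 and 5.39 CPM in Ctrl, at 1.78 (SE 0.61, adjusted p 0.028 by edgeR). The rise of Cnfn rested on EEDcKO replicate 3, aged 1 day, and without that library the log2 fold change was 0.60. Its call was also lost without Ctrl replicate 2 (1.65) and Ctrl replicate 4 (1.68). Flg lost its call without mTEChi Ctrl replicate 1 (−1.29), mTEChi Ctrl replicate 3 (−1.33), mTEChi EEDcKO replicate 2 (−1.20) and mTEChi EEDcKO replicate 3 (−1.21), and Sbsn without mTEChi Ctrl replicate 1 (−0.996) and mTEChi EEDcKO replicate 2 (−0.91). Dsg1a was 224, 151 and 128 CPM in EEDcKO, below every Ctrl library but under 2-fold (−0.87, SE 0.29, adjusted p 0.025 by edgeR), and Spink5 was 57.6, 26.5 and 57.2 CPM, below every Ctrl library at −0.95 (SE 0.37, adjusted p 0.053 by edgeR). Ivl was 3.72, 6.12 and 6.29 CPM in EEDcKO, also below every Ctrl library (7.70 to 13.2 CPM), and was not called. The share of all genes without overlap was not counted for this comparison. Without EEDcKO replicate 1, Dsg1a (−1.11) and Cdsn (−1.19) were called lower in addition. Lor (−0.31, SE 0.63, adjusted p 0.74 by edgeR) and Krtdap (0.16, SE 0.31, adjusted p 0.73 by edgeR) were not called. The summed level of the mesenchymal markers was 483 to 765 CPM in EEDcKO and 233 to 307 CPM in Ctrl, and its part in these results was not tested.

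Without Aire, Lor, Sbsn and Krtdap were called lower in neonatal mTEChi of AireEEDdKO than of AireKO mice. In that comparison 6.69% of the 20196 genes tested were called higher and 2.78% lower. Lor was 0, 3.47 and 0.642 CPM in AireEEDdKO and 8.91, 13.8 and 26.6 CPM in AireKO, without overlap, at a log2 fold change of −3.78 (SE 1.20, adjusted p 0.033 by edgeR). The AireEEDdKO libraries held 0, 6 and 2 counts of Lor, and 0 counts allow up to 1.77 CPM in replicate 1. Krtdap was 1.18, 6.35 and 10.6 CPM in AireEEDdKO and 26.7, 22.0 and 27.7 CPM in AireKO, with −1.94 (SE 0.43, adjusted p 0.0031 by edgeR), and kept its call without any 1 library (−2.76 without AireEEDdKO replicate 3). Sbsn was 4.71, 8.09 and 6.09 CPM in AireEEDdKO and 14.4, 13.8 and 23.7 CPM in AireKO, with −1.50 (SE 0.35, adjusted p 0.0048 by edgeR). Lor lost its call without mTEChi AireKO replicate 2 (−3.89), mTEChi AireEEDdKO replicate 1 (−3.33), mTEChi AireKO replicate 3 (−3.15) and mTEChi AireEEDdKO replicate 3 (−3.30) and stood at −5.28 without mTEChi AireEEDdKO replicate 2, and Sbsn lost its call without mTEChi AireKO replicate 3 (−1.17). Flg was called lower without AireEEDdKO replicate 2 (−1.67). Same-numbered libraries deviated together in these groups, and with the replicate number as a block Ivl was called in addition (−1.56, edgeR adjusted p 0.050), against −1.57 (SE 0.73, adjusted p 0.15 by edgeR) without the block. Mesenchymal markers summed to 362 to 642 CPM in AireEEDdKO and 218 to 304 CPM in AireKO, and their part was not tested.

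**Figure D4:**
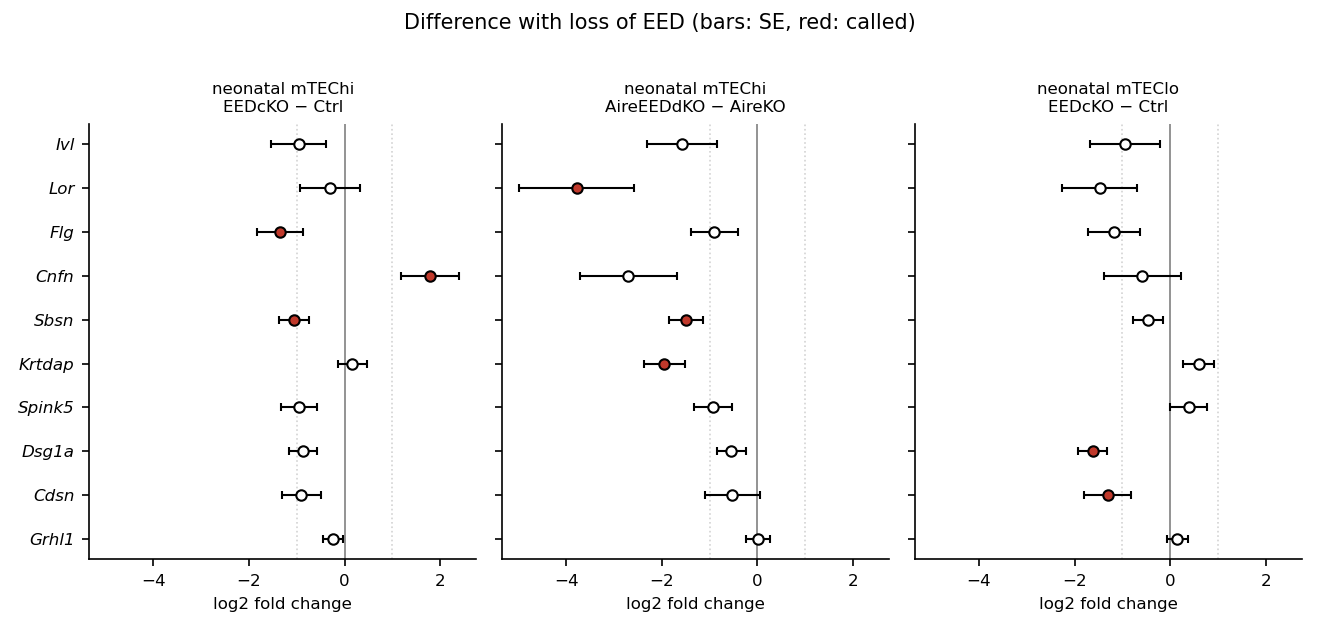
Log2 fold change (x axis) with loss of EED for each of the 10 genes (y axis) in 3 neonatal comparisons, with bars for the standard error, red points for genes called and dotted lines at a 2-fold difference. Sbsn was called lower in both mTEChi comparisons, Lor and Krtdap in the comparison without Aire, and Dsg1a and Cdsn in mTEClo.

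Set against EEDcKO, the AireEEDdKO libraries of neonatal mTEChi were lower in Lor, Krtdap and Cnfn and higher in Dsg1a. In this comparison 4.99% of the 20196 genes tested were called higher and 8.36% lower. Lor fell from 52.6, 28.9 and 34.9 CPM in EEDcKO, at −4.89 (SE 1.12, adjusted p 0.0034 by edgeR). Krtdap fell from 27.9, 24.5 and 43.4 CPM, at −2.26 (SE 0.42, adjusted p 0.00060 by edgeR), and neither group overlapped the other. Both calls held without any 1 library, with Lor at −6.39 without AireEEDdKO replicate 2 and Krtdap at −3.07 without AireEEDdKO replicate 3. Cnfn was 0, 2.31 and 0.642 CPM in AireEEDdKO, with 0, 4 and 2 counts, at −3.79 (SE 0.93, adjusted p 0.0058 by edgeR), and without EEDcKO replicate 3 the value was −2.599 and the call was lost, while without AireEEDdKO replicate 2 it was −4.90. Dsg1a was 326, 428 and 299.9 CPM in AireEEDdKO and 224, 151 and 128 CPM in EEDcKO, at 1.07 (SE 0.32, adjusted p 0.018 by edgeR), and lost its call without mTEChi EEDcKO replicate 2 (0.94), mTEChi EEDcKO replicate 3 (0.91) and mTEChi AireEEDdKO replicate 2 (0.91). All AireEEDdKO libraries were aged 4 to 6 days and EEDcKO replicates 2 and 3 were aged 1 to 3 days. With age class as a term, the calls of Dsg1a (0.56) and Cnfn (−2.58) were lost and those of Lor and Krtdap were kept.

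Krtdap was the only one of the 10 genes whose response to loss of Aire was called different with and without EED. In neonatal mTEChi its mean level was 28.3 ± 5.41 CPM in Ctrl (SD, n = 5), 25.5 ± 3.02 in AireKO (n = 3), 31.9 ± 10.1 in EEDcKO (n = 3) and 6.04 ± 4.71 in AireEEDdKO (n = 3). The interaction, the AireKO effect without EED minus that with EED, was −2.11 (SE 0.53, adjusted p 0.044 by edgeR) on the log2 scale. Across all genes 0.807% of the 20196 genes tested were called higher and 0.446% lower. The adjusted p lay near the threshold, and leaving out any 1 of 11 of the 14 libraries ended the call, all but mTEChi Ctrl replicate 5, EEDcKO replicate 1 and AireEEDdKO replicate 3, with values over these leave-outs from −2.92 to −1.72, and so did scaling libraries by their size alone (−2.0). The interaction of Cnfn was larger with a wider error, −4.49 (SE 1.18, adjusted p 0.053 by edgeR), and so was that of Lor, −3.47 (SE 1.39, adjusted p 0.21 by edgeR), and neither was called. Without EEDcKO replicate 1 Cnfn was called (−4.88). Krtdap in mTEClo AireEEDdKO was 50.5, 43.3 and 53.5 CPM, above each of the 3 mTEChi AireEEDdKO libraries.

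In neonatal mTEClo, the adhesion genes Dsg1a and Cdsn were called lower in EEDcKO than in Ctrl, and 9.51% of the 20196 genes tested were called higher and 6.22% lower. These groups also differed in age and in markers of other cells, as given below. Dsg1a was 33.0, 36.3, 88.1 and 73.2 CPM in EEDcKO and 199, 205 and 133 CPM in Ctrl, without overlap, a log2 fold change (EEDcKO minus Ctrl) of −1.62 (SE 0.30, adjusted p 0.00032 by edgeR) that kept its call without any 1 library. Cdsn was 1.68, 1.44, 0.640 and 4.795 CPM in EEDcKO and 7.77, 4.56 and 3.38 CPM in Ctrl, with −1.30 (SE 0.49, adjusted p 0.046 by edgeR), and lost its call without mTEClo Ctrl replicate 1 (−0.96), mTEClo Ctrl replicate 2 (−1.49), mTEClo EEDcKO replicate 1 (−1.22), mTEClo EEDcKO replicate 2 (−1.18) and mTEClo EEDcKO replicate 3 (−0.95). Without mTEClo EEDcKO replicate 4 it was −2.15. Flg was 1.68, 5.03, 7.04 and 8.33 CPM in EEDcKO, below every Ctrl library (9.80, 18.6 and 10.1 CPM), and was not called (−1.18, SE 0.54, adjusted p 0.10 by edgeR). Ivl was 0.337, 0.719, 0.426 and 6.06 CPM and Lor 1.01, 1.44, 15.4 and 1.51 CPM in EEDcKO, where 1 library each stood far above the other 3. Without that library each was called lower, Ivl at −2.89 without replicate 4 and Lor at −3.45 without replicate 3. Krtdap was 17.5, 27.3, 46.7 and 54.0 CPM in EEDcKO, with 0.60 (SE 0.33, adjusted p 0.18 by edgeR).

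Ages differed between these mTEClo groups, since Ctrl libraries were aged 1 to 3 days and EEDcKO replicates 3 and 4 were aged 6 and 4 days. Those EEDcKO replicates are also the ones with later sample numbers, which cannot be told apart from age within EEDcKO. Among libraries of 1 to 3 days alone, 5 of the 10 genes were called lower, Ivl (−2.84), Lor (−3.65), Flg (−2.02), Dsg1a (−2.44) and Cdsn (−1.83), as were 6.88% of the 19662 genes tested. With age class as a term, Dsg1a kept its call and Cdsn lost it (−1.39). The summed cortical markers were 1694 to 2581 CPM in Ctrl and 390.4 to 876 CPM in EEDcKO, the summed mesenchymal markers 117 to 124 CPM and 448 to 635 CPM, and the summed endothelial markers 17.9 to 20.3 CPM and 7.57 to 14.1 CPM. Their part in these results was not tested. The difference of the EED effects between fractions, mTEChi minus mTEClo, was called by edgeR for none of the 10 genes, and 2 had an unadjusted p under 0.05, against 15% of all genes, Spink5 (−1.34) and Cnfn (2.36). DESeq2 called 0 of them. In that test 0.614% of the 20196 genes tested were called higher and 0.97% lower.

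Between AireEEDdKO and EEDcKO mTEClo 1 of the 10 genes was called, Flg, which was higher in AireEEDdKO, where 3.45% of the 20196 genes tested were called higher and 1.85% lower. Flg was 12.9, 34.3 and 5.56 CPM in AireEEDdKO and 1.68, 5.03, 7.04 and 8.33 CPM in EEDcKO, with overlap, at 1.64 (SE 0.50, adjusted p 0.045 by edgeR). The call was lost without mTEClo EEDcKO replicate 1 (1.37), mTEClo EEDcKO replicate 2 (1.59), mTEClo AireEEDdKO replicate 1 (1.81) and mTEClo AireEEDdKO replicate 2 (0.67), and with age class as a term (1.48). Lor was 31.2, 0.616 and 8.57 CPM in AireEEDdKO, at 1.24 (SE 0.77, adjusted p 0.36 by edgeR). Single libraries set further calls here. Lor was called higher without EEDcKO replicate 3, at 3.21 (adjusted p 0.021 by edgeR), and Ivl without EEDcKO replicate 4, at 2.61 (adjusted p 0.032). Dsg1a was called higher without EEDcKO replicate 3 (1.20) and without AireEEDdKO replicate 3 (1.23). The endothelial markers summed to 4.11 to 6.94 CPM in AireEEDdKO and 7.57 to 14.1 CPM in EEDcKO, and their part was not tested.

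Between fractions of EEDcKO mice, Lor, Cnfn, Dsg1a and Cdsn were higher in mTEChi, and none of the 10 genes was lower. Here 14.2% of the 20196 genes tested were called higher and 7.67% lower. Lor was 52.6, 28.9 and 34.9 CPM in mTEChi against 1.01, 1.44, 15.4 and 1.51 in mTEClo, at 2.81 (SE 0.73, adjusted p 0.0044 by edgeR). Dsg1a had 1.51 (SE 0.30, adjusted p 0.00047 by edgeR), Cdsn had 1.74 (SE 0.47, adjusted p 0.0056 by edgeR) and Cnfn had 2.57 (SE 0.68, adjusted p 0.0049 by edgeR). Lor, Dsg1a and Cdsn did not overlap between fractions and kept their calls without any 1 library, whereas Cnfn lost its call without mTEChi EEDcKO replicate 3 (1.38). Without mTEClo EEDcKO replicate 3 the value of Lor was 4.79, without replicate 4 that of Cdsn was 2.59, and without replicate 2 that of Cnfn was 3.64. Ivl was called higher in mTEChi without mTEClo EEDcKO replicate 4 (3.42). In EEDcKO summed myeloid markers were 189.8 to 308 CPM in mTEChi and 41.6 to 173 CPM in mTEClo, thymocyte markers 45.3 to 102 and 19.7 to 40.4 CPM, endothelial markers 16.1 to 25.2 and 7.57 to 14.1 CPM and cortical epithelial markers 299 to 363 and 390.4 to 876 CPM, and their part was not tested.

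In AireEEDdKO mice, Lor, Krtdap and Cnfn were lower and Dsg1a was higher in mTEChi than in mTEClo, where 10.4% of the 20196 genes tested were called higher and 10.6% lower. All mTEClo libraries here carry later sample numbers than the mTEChi libraries, and the part of this was not tested. Krtdap was 1.18, 6.35 and 10.6 CPM in mTEChi against 50.5, 43.3 and 53.5 CPM in mTEClo, without overlap, at −2.88 (SE 0.41, adjusted p 1.7e-05 by edgeR). Dsg1a was 326, 428 and 299.9 CPM against 131, 133 and 67.8 CPM, also without overlap, at 1.67 (SE 0.32, adjusted p 0.00034 by edgeR). Lor had −3.32 (SE 1.21, adjusted p 0.033 by edgeR) and Cnfn −2.52 (SE 0.99, adjusted p 0.046 by edgeR). Lor lost its call without mTEChi AireEEDdKO replicate 1 (−2.88), mTEChi AireEEDdKO replicate 3 (−2.85) and mTEClo AireEEDdKO replicate 1 (−1.82), and Cnfn without mTEChi AireEEDdKO replicate 1 (−2.08), mTEChi AireEEDdKO replicate 3 (−2.22) and mTEClo AireEEDdKO replicate 2 (−1.71). Without mTEChi AireEEDdKO replicate 2 the value of Lor was −4.83 and that of Cnfn −3.64, without mTEClo AireEEDdKO replicate 2 that of Lor was −3.93, and without mTEChi AireEEDdKO replicate 3 that of Krtdap was −3.69. Same-numbered libraries deviated together in these groups, and with the replicate number as a block on them alone 2 calls remained, Krtdap (−2.88) and Dsg1a (1.75). Lor and Cnfn were not tested in that fit for lack of counts. Flg was called higher in mTEChi without mTEClo AireEEDdKO replicate 2 (1.61). In AireEEDdKO summed myeloid markers were 244 to 409.7 CPM in mTEChi and 60.9 to 209 CPM in mTEClo, thymocyte markers 57.2 to 63.2 and 15.4 to 34.4 CPM, endothelial markers 13.3 to 16.5 and 4.11 to 6.94 CPM and cortical epithelial markers 276 to 338 and 387 to 438 CPM, and their part was not tested.

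**Figure D5:**
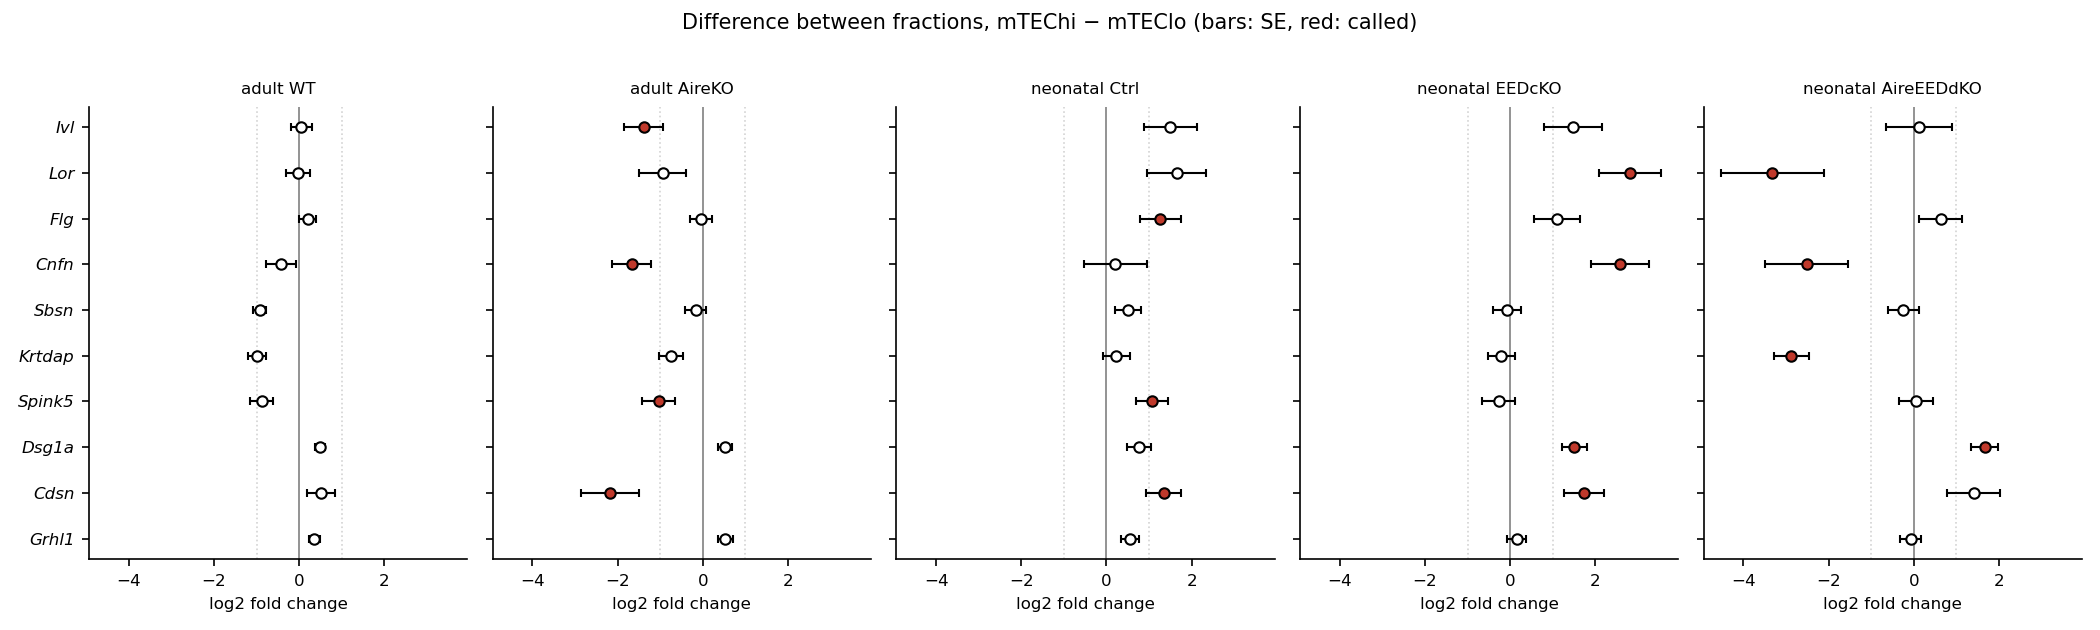
Log2 fold change between fractions (mTEChi minus mTEClo, x axis) of each of the 10 genes (y axis) in 5 genotypes and ages, with bars for the standard error, red points for genes called and dotted lines at a 2-fold difference. Dsg1a lay on the mTEChi side in all 5 panels, and Krtdap was called on the mTEClo side in AireEEDdKO.

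With loss of EED, the other cornification genes of neonates fell in part and rose in part. Keratinocyte keratins fell at 4 of 6 and rose at none in both fractions, with Krt1 at −1.38 in mTEChi and −1.49 in mTEClo and Krt10 at −1.19 and −1.81. In mTEChi EEDcKO against Ctrl, 4 of 15 barrier lipid genes fell and none rose, Sdr9c7 (−2.40), the lipid transporter Abca12 (−2.19), Pnpla1 (−1.66) and Aloxe3 (−1.48). Of 8 desmosomal cadherins, Dsc1 (−2.94) and Dsg1c (−1.47) fell and Dsg3 (1.16), a desmoglein of basal keratinocytes, rose. Of 20 regulators none fell, and Gata3 (1.76) and Tfap2a (1.58) rose. Envelope precursors had 3 of 12 lower, Rptn (−2.87), Tchhl1 (−1.93) and Hrnr (−1.80), and desquamation genes 4 of 16 lower and 1 higher, with Casp14 (−1.85) lower and Klk8 (1.05) higher. In mTEClo EEDcKO against Ctrl, Dsc1 (−4.66), Dsg1b (−1.49) and Dsg4 (−1.32) fell and Dsg3 (1.24) rose. In mTEClo 4 of 12 envelope precursors fell, including Rptn (−3.92) and Hrnr (−2.32), and 4 of 15 barrier lipid genes, including Sdr9c7 (−2.34) and Abca12 (−1.997), and none of either list rose. Of 16 desquamation genes 4 fell there, including Klk5 (−4.40), and 2 rose, Klk8 (2.605) and Prss8 (1.78). There 5 of the 20 regulators rose and none fell, Gata3 (2.90), Tfap2a (2.40), Cebpb (1.65), Klf4 (1.03) and Zfp750 (1.03). The calmodulin-like Calm4 fell in both fractions, by 2.67 in mTEChi and by 7.27 in mTEClo on the log2 scale, and dermokine (Dmkn) had −1.20 and −1.11.

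Across libraries the 10 genes varied widely in likeness to each other. Pearson's r of log2(CPM + 1) over all 45 pairs had a median of 0.24 over the 23 adult libraries, with a range from −0.78 to 0.77, and a median of 0.42 over the 24 neonatal libraries, with a range from −0.37 to 0.88. Ivl and Cdsn had r 0.65 in adults and 0.69 in neonates, Lor and Cdsn 0.77 and 0.62, Sbsn and Spink5 0.64 and 0.72, and Krtdap and Cnfn 0.66 and 0.51. These values describe libraries that share groups, depth and kind, and no test was made of them.

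The genes most like each member were sought among 18546 genes tested in both tables, by the smaller of Pearson's r over adult and over neonatal libraries. Values are given as adult and neonatal r. For Ivl the most alike was the keratin Krt23 (0.78 and 0.75), which was also among the 3 nearest to Cdsn. For Lor it was the desquamation protease Klk7 (0.78 and 0.75), followed by Krt77 (0.74 and 0.74). For Cdsn it was Kcnk16 (0.83 and 0.81), followed by the kallikrein Klk13 (0.79 and 0.80), and for Sbsn its neighbour Dmkn (0.85 and 0.77). For Flg it was Umad1 (0.66 and 0.79), followed by Serpinb7 (0.65 and 0.84). Krtdap was nearest to Perp (0.72 and 0.73), Spink5 to Ly6g6c (0.77 and 0.75), Grhl1 to Sectm1b (0.81 and 0.82), Dsg1a to Skint1 (0.91 and 0.96) and Cnfn, with the weakest likeness of the 10, to Reep4 (0.59 and 0.59). Ranks differed between measures. By Spearman's rho, Krt77 came only at rank 303 for Lor and Klk13 at rank 213 for Cdsn, whereas Dmkn, Umad1, Ly6g6c and Sectm1b kept the first rank for Sbsn, Flg, Spink5 and Grhl1.

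Over the 16 comparisons, 37 of the 160 values of the 10 genes were called, or 23.1%, against 16% of the values of all genes. Cdsn was called in 7 comparisons, lower in 5 and higher in 2, and Lor in 6, lower in 5 and higher in 1. Cnfn was called in 5, Krtdap in 4, always lower, and Dsg1a in 4, higher in 3. Ivl, Sbsn and Flg were called in 3 each and Spink5 in 2. Grhl1 was called in none, and its mean ran from 43.8 to 95.3 CPM over the 11 groups. Comparisons that share a group, such as those with mTEChi WT or Ctrl, are not independent of each other. The 10 genes were also chosen with earlier results of these data known.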

How the data were processed

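Counts of RNA-seq reads per gene were deposited by the authors in an adult table of 23 libraries and a neonatal table of 24. Libraries were made by RamDA-seq, which primes with random and oligo-dT primers. The submitters' processing notes name fastp 0.20.0, STAR 2.7.3a, SAMtools 1.9, Picard 2.21.1 and HTSeq 0.11.2, with the mm10 build. Multi-mapped and duplicate reads were removed and strand was ignored, so reads of overlapping and near-identical genes may be missing or shared. The annotation release is not given in the sources used here. The deposited normalized tables were not used, and none of the samples was left out.

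Each table was fitted with edgeR 4.0.16 (R 4.3.3, limma 3.58.1), with TMM scaling, filterByExpr and the quasi-likelihood F-test over all groups of the table, without covariates. The coefficient of biological variation was 14.5% in adults and 19.8% in neonates. The 10 genes, the gene lists and the tests were chosen with earlier results of these data known. The members were described in every group, and list genes by their counts and by the most abundant and the most changed of them. Other list genes were named after their values were seen. Likeness used log2(CPM + 1). Low counts limit Ivl, Lor, Cnfn and Cdsn most, and floors are 3 counts of a library and cover counting error only.

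Replicate numbers were taken as pairs where every pair's deviations from the group means correlated above 0.1. This held between fractions of adult AireKO (r 0.139 to 0.222, 4 pairs), between neonatal mTEChi AireEEDdKO and AireKO (r 0.108 to 0.213, 3 pairs) and between fractions of AireEEDdKO (r 0.291 to 0.416, 3 pairs). The pairing comes from the numbers in the labels. Alternatives changed the scaling (RLE factors, library size alone), the filter, the minimum change, the tool (DESeq2 1.42.0), the groups fitted, the replicate block, sex, age, kind of library and single libraries. The steps were tested on simulated counts with known changes.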

Additional observations from a re-analysis of the deposited data

Results flagged for a closer look

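In 3 of the 60 groups of 4 to 10 libraries that were checked gene by gene, 1 library stood far from the rest of its group, by the 95% limit of Dixon's test, which chance alone passes in about 5% of groups. Cdsn had 47.1 CPM in adult mTEClo WT replicate 2, the highest of the 8 libraries. Ivl had 6.06 CPM in neonatal mTEClo EEDcKO replicate 4, aged 4 days, and Lor had 15.4 CPM in neonatal mTEClo EEDcKO replicate 3, aged 6 days. The other 3 libraries of that group lay below 2 CPM for both genes.

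In 3 cases the AireKO effect on a gene was called different between settings by a test of the difference itself (edgeR's quasi-likelihood test). The AireKO effect in adult mTEChi minus that in adult mTEClo was −1.44 on the log2 scale for Ivl and −2.69 for Cdsn. In that test 2.7% of all genes tested were called higher and 11% lower, and kind of library entered it unequally. The AireKO effect in neonatal mTEChi without EED minus that with EED was −2.11 for Krtdap, where 0.807% of all genes tested were called higher and 0.446% lower. The calls of Ivl and Krtdap were lost on leaving out single libraries, as given above.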

How the results depend on the processing

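Of the 37 called values, 14 kept their call in every alternative in which they were tested and none changed sign. Filters left 4 called values untested in some alternative. Of the 123 values not called, 42 were called in some alternative and 45 changed sign in one. The number of the 10 genes called moved as follows, and the cause was not tested. Percentages in brackets are the share of all genes tested that were called in that comparison under the same alternative.

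In adult mTEChi AireKO against WT it was 3, and 5 with the kind of library as a term (21.8%). In adult mTEClo AireKO against WT it was 2, with 5 on the adjusted p alone (24.9%) and 0 with age in weeks as a term (5.42%). Between adult WT fractions it was 0, with 5 on the adjusted p alone (70.5%), 1 with no filter on low counts (32.2%), 1 with age in weeks as a term (36.6%) and 0 to 2 when a library was left out. Between adult AireKO fractions it was 4, with 7 on the adjusted p alone (57.5%), 2 on the groups compared alone (33.5%), 2 with the replicate block (33.8%) and 2 to 4 without a library. The adult interaction gave 2, with 1 among male libraries (11.4%), 1 with age in weeks (13.4%), 1 with the replicate block (12.8%) and 1 to 3 without a library.

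Neonatal mTEChi AireKO against Ctrl gave 1, with 2 on the adjusted p alone (28.8%), 2 with no filter (8.97%), 0 among libraries of 4 to 6 days (8.73%), 2 on the groups compared alone (17.7%) and 2 with the replicate block (15.7%). EEDcKO against Ctrl in mTEChi gave 3, with 5 among libraries of 1 to 3 days (15.2%) and 1 to 5 without a library (5 without EEDcKO replicate 1, 1 without Ctrl replicate 1 or EEDcKO replicate 2 or 3). AireEEDdKO against AireKO gave 3, with 1 to 4 without a library (1 without AireKO replicate 3), and against EEDcKO 4, with 2 with age class as a term (10.8%) and 2 to 4 without a library (2 without EEDcKO replicate 3). EEDcKO against Ctrl in mTEClo gave 2, with 5 among libraries of 1 to 3 days (14.2%), 1 with age class (15.8%), 1 on the groups compared alone (13.9%) and 1 to 3 without a library. AireEEDdKO against EEDcKO in mTEClo gave 1, with 0 among libraries of 4 to 6 days (0.854%), 0 with age class (3.79%), 0 on the groups compared alone (0.222%), 0 with the replicate block (0%) and 0 to 3 without a library (3 without EEDcKO replicate 3).

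Between neonatal Ctrl fractions it was 3, with 5 on the adjusted p alone (37.4%), with no filter (10.5%), among libraries of 1 to 3 days (20.9%) and on the groups compared alone (24.3%), and 0 to 3 without a library (0 without mTEClo Ctrl replicate 3). Between AireEEDdKO fractions it was 4, with 2 on the groups compared alone (20.6%), 2 with the replicate block (23.6%) and 2 to 4 without a library. The neonatal mTEChi interaction gave 1, with 0 by library size alone (1.14%), 3 with no filter (1.01%), 2 by DESeq2 (1.92%), 2 with age class (1.47%), 3 on the groups compared alone (2.16%) and 0 to 2 without a library. The difference of EED effects between fractions gave 0, with 2 among libraries of 1 to 3 days (3.97%) and 1 with age class (1.74%). In the other comparisons the replicate block kept the count within 1.5 times. Where numbers did not pair the libraries, they are no more than names.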
